A study of Mus musculus with 10 samples.

Results

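Translation initiation and elongation factors were taken as every protein-coding gene of the count table whose GENCODE symbol starts with *Eif* or *Eef* followed by a digit. The rule found 87 genes among 57185 with counts, and 65 of them passed the count filter, more than 10 counts in at least 6 of the 10 mice, and entered the test of 13453 genes. Hearts of 5 MLPKO and 5 cRADΔ/Δ-MLPKO mice were compared by bulk RNA-seq of polyadenylated RNA, with a library from each of the 10 males. In MLPKO mice *Csrp3*, which encodes muscle LIM protein (MLP), is knocked out and the heart dilates; these mice also carry floxed *Rrad* (the gene for RAD, a brake on the L-type calcium channel) and have no Cre. The cRADΔ/Δ-MLPKO mice, genotype MLPKO-cRADKO in the labels, share both alleles and carry in addition the MYH6-MerCreMer transgene, whose promoter restricts recombination to cardiomyocytes. Both groups were given tamoxifen once (100 mg/kg, intraperitoneal) at 10 weeks; the tissue, labelled left ventricle and taken from the apical part, is given as 16 weeks old and as 1 month after that dose, which do not match exactly. The controls had no MerCreMer, so the transgene and the loss of RAD cannot be told apart, and no mouse with intact MLP was included. The study asked which genes change when RAD is deleted in a heart that has already dilated, and here the factors that start and extend protein synthesis are described.

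Translation starts when the eIF4F complex (the cap-binding eIF4E, the scaffold eIF4G and the helicase eIF4A) brings an mRNA to a small ribosomal subunit held by eIF3, and eIF2 with GTP delivers the initiator tRNA to the start codon. The exchange factor eIF2B recharges eIF2, and the eIF2 alpha kinases block that step under stress. In elongation, eEF1A carries aminoacyl-tRNA to the ribosome and eEF2 moves the ribosome along. eEF1A has a pair of forms: *Eef1a1* is expressed in most tissues, whereas *Eef1a2* is the form of adult heart, skeletal muscle and neurons. Only mRNA was measured, not protein, phosphorylation or the rate of translation.

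Total counts ranged from 33457406 to 49965101 per library, and 73.7 to 80.3% of the values between 1 and 20 were even, as when both reads of a pair are counted. Genotypes were taken from the labels, which the targeted gene did not check: *Rrad* ranged from 5714 to 11522 normalized counts in the libraries labelled MLPKO and from 5504 to 8274 in those labelled MLPKO-cRADKO (log2 fold change −0.38, standard error, SE, 0.20, edgeR adjusted p = 0.29), the count covering the whole gene and all cells of the tissue. *Csrp3*, knocked out in both groups, still had 41289 to 133383 normalized counts in MLPKO and 28254 to 48153 in cRADΔ/Δ-MLPKO (log2 fold change −1.08, SE 0.29, edgeR adjusted p = 0.0667). All 10 cardiomyocyte markers passed the count filter. MLPKO mouse 2 stood apart, with the highest sums of atrial markers (100448 normalized counts, MLPKO median 39423) and of erythroid markers (114493, MLPKO median 31537). The atrial list holds *Nppa*, which the paper counts among foetal genes lower in cRADΔ/Δ-MLPKO, so its sum does not by itself show atrial tissue. The median atrial sum was 7762 in cRADΔ/Δ-MLPKO, although 3 of the 4 atrial genes tested had a log2 fold change above 0. In cRADΔ/Δ-MLPKO, mouse 3 had 3651 summed adipocyte counts against a median of 24.5, and the highest endothelial, smooth muscle and macrophage sums.

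The eEF1A pair differed in opposite directions between the genotypes. *Eef1a1* rose in cRADΔ/Δ-MLPKO and was the only factor past the threshold, an adjusted p under 0.05 in edgeR's quasi-likelihood test over all genes. *Eef1a2* was lower in every cRADΔ/Δ-MLPKO mouse than in every MLPKO mouse without passing that threshold. The genes are told apart by their sequence, shown here over the 90 coding bases in which they differ most, with capitals at the 29 bases that differ between them, read 5′ to 3′ from the GENCODE M39 transcripts (GRCm39). Both stretches are coding bases 634 to 723, in exon 5 of 8, on the minus strand, at chr9:78386955-78387044 for *Eef1a1* and chr2:180792761-180792850 for *Eef1a2*.
Eef1a1: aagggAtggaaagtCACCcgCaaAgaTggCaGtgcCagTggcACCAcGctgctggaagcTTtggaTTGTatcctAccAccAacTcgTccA
Eef1a2: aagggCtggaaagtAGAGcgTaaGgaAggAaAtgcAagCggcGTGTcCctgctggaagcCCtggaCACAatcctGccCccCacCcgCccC

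Over the whole coding sequence (1386 bases in *Eef1a1* and 1389 in *Eef1a2*), 1110 of 1386 aligned bases were identical (80.1%), and the longest identical run was 23 bases, so reads longer than that hold bases that tell the pair apart. Other annotated genes are a larger source of doubt for *Eef1a1*: 10 of them match stretches of it at 95% identity or more and together cover all of its coding sequence, whereas *Eef1a2* has 0 such copies and shares 1.36% of its exon bases with a gene on the opposite strand. How reads with several matches were counted, and whether strand was used, is not given in the sources used here. The 9 copies in the table held between 1.76 and 2.64% of the count of *Eef1a1* in each mouse. Copies at that identity also cover the whole coding sequence of other members, among them *Eif4a1* (4 genes), *Eif4e* (4), *Eef1g* (4) and *Eif3h* (1). The counts of those copies were not examined.

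*Eef1a1* (chromosome 9, 78384916 to 78396778) had 19405, 21920, 21713, 20385 and 19133 normalized counts in MLPKO mice 1 to 5 and 26868, 23414, 27682, 23789 and 25555 in cRADΔ/Δ-MLPKO mice 1 to 5. Normalized counts are counts scaled to a common library size, and the lowest cRADΔ/Δ-MLPKO mouse lay above the highest MLPKO mouse. The means were 20511 ± 1282 (SD, n = 5) and 25462 ± 1864 (SD, n = 5), 24.1% higher in cRADΔ/Δ-MLPKO, with a log2 fold change of 0.31 (SE 0.07, edgeR adjusted p = 0.0375). With DESeq2 the adjusted p was 0.000539. The edgeR call depended on single mice: it was kept without MLPKO mouse 2 (edgeR adjusted p = 0.0328) and without 3 others, and was lost without MLPKO mouse 1 (0.0906) or 5 (0.0843) and without cRADΔ/Δ-MLPKO mouse 1 (0.0723), 3 (0.0781), 4 (0.058) or 5 (0.0844), while the log2 fold change stayed between 0.29 and 0.34.

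*Eef1a2* (chromosome 2, 180778581 to 180799838) had 77304, 78087, 83204, 78191 and 90463 normalized counts in MLPKO and 68738, 67076, 65968, 76481 and 66146 in cRADΔ/Δ-MLPKO. The highest cRADΔ/Δ-MLPKO mouse, mouse 4, lay closest to the lowest MLPKO mouse, and the other 4 lay well below. The means were 81450 ± 5555 (SD, n = 5) and 68882 ± 4388 (SD, n = 5), a difference of −15.4%, with a log2 fold change of −0.24 (SE 0.07, edgeR adjusted p = 0.0749, DESeq2 adjusted p = 0.00871).

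**Figure D1:**
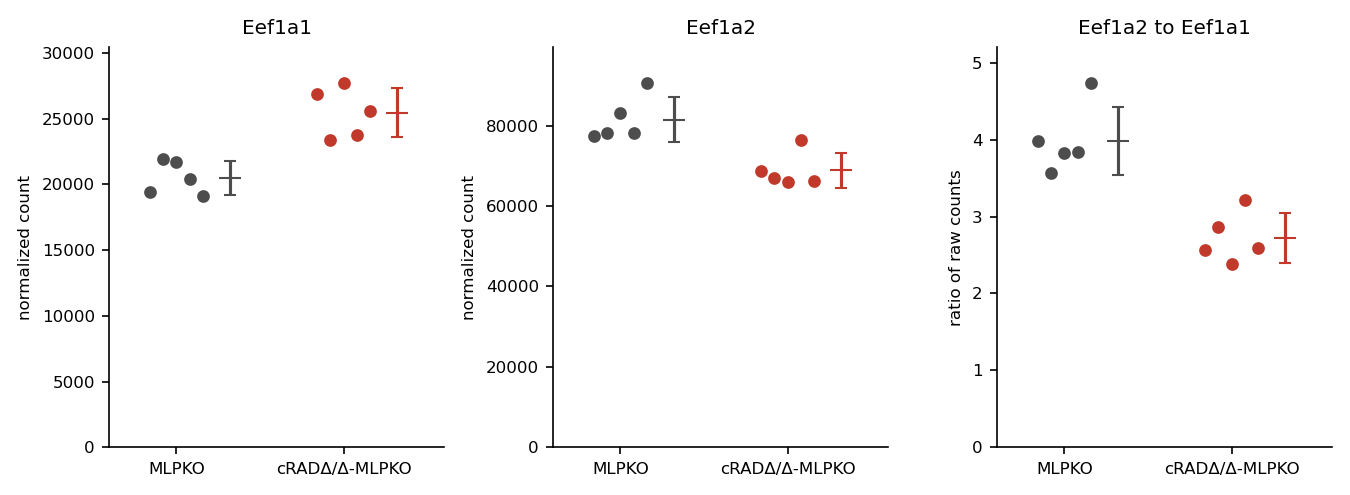
Normalized counts of *Eef1a1* and *Eef1a2* and the ratio of their raw counts in each of 10 mice, MLPKO in grey and cRADΔ/Δ-MLPKO in red, with the mean and SD beside the points and axes starting at 0. The groups do not overlap in any panel, and the ratio lies between 3.56 and 4.73 in MLPKO and between 2.38 and 3.21 in cRADΔ/Δ-MLPKO.

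The ratio of the pair within a library needs no library size. It was 3.98, 3.56, 3.83, 3.84 and 4.73 counts of *Eef1a2* per count of *Eef1a1* in MLPKO mice 1 to 5 and 2.56, 2.86, 2.38, 3.21 and 2.59 in cRADΔ/Δ-MLPKO mice 1 to 5. On the log2 scale MLPKO averaged 1.99 ± 0.15 (SD, n = 5) and cRADΔ/Δ-MLPKO 1.44 ± 0.17 (SD, n = 5), a difference of −0.55 (SE 0.10). An exact two-sided permutation test over all 252 splits of the mice gave p = 0.00794, the smallest they allow. Adjusted over the 10 paralog pairs tested the value was 0.0794. Without any single mouse the difference stayed between −0.61 and −0.49 (exact permutation p between 0.00794 and 0.0159).

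Together the pair had 101961 ± 5241 normalized counts (SD, n = 5) in MLPKO mice and 94343 ± 3842 (SD, n = 5) in cRADΔ/Δ-MLPKO, and the groups overlapped, at 96709 to 109596 and 90490 to 100270. *Eef1a1* supplied 17.5 to 21.9% of the counts of the pair in MLPKO and 23.7 to 29.6% in cRADΔ/Δ-MLPKO. Which of the 2 genes had the higher level depended on the length used. Per kilobase of coding length, *Eef1a2* had 58639 normalized counts in MLPKO and *Eef1a1* 14799, but per kilobase of the canonical GENCODE transcript, 13742 bases for *Eef1a2* and 1794 for *Eef1a1*, they had 5927 and 11433, so no order of levels is given.

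Markers of some cell types also differed between the genotypes. The edgeR test called 0.944% of all genes higher and 1.8% lower. The 8 endothelial markers summed to 40646 to 45964 normalized counts in MLPKO and 48931 to 55640 in cRADΔ/Δ-MLPKO, with 8 of 8 log2 fold changes above 0 and 1 called. The smooth muscle and pericyte markers summed to 32804 to 41486 and 41892 to 48757, with 5 of 7 tested above 0 and 2 called. These were the only lists of the 11 whose sums did not overlap between the genotypes. The macrophage sums, 4891 to 7130 and 6099 to 11107, overlapped, with 8 of 8 above 0 and 0 called. The cardiomyocyte sums also overlapped, at 3195682 to 3618936 and 2526243 to 3257043, with 8 of 10 below 0 and 1 called. In bulk tissue, fewer cells of a type and less RNA per cell cannot be told apart, and the part of these cell types in the *Eef1a1* and *Eef1a2* values was not tested. In the remaining lists, which overlapped too, the summed counts were 54602 to 78434 and 47304 to 83422 for fibroblast markers (8 tested, 1 called), 4569 to 100448 and 6263 to 18497 for atrial markers (4 tested, 0 called), 1513 to 4321 and 1906 to 4006 for skeletal muscle (5 tested, 0 called, *Myh4* at 0 in all mice), 11801 to 114493 and 16738 to 80942 for erythroid cells (5 tested, 0 called), 90.5 to 220 and 110 to 323 for lymphocytes (5 tested, 0 called), 219 to 446 and 326 to 439 for neurons and Schwann cells (5 tested, 0 called, *Chga* at 0 in all mice), and 2.18 to 37.9 and 0 to 3651 for adipocytes (0 tested). Without cRADΔ/Δ-MLPKO mouse 3, which had the highest *Eef1a1*, the log2 fold changes were 0.29 for *Eef1a1* (edgeR adjusted p = 0.0781) and −0.22 for *Eef1a2* (edgeR adjusted p = 0.149).

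Across the 65 factors tested, most differences were small and lay below 0. The log2 fold change was negative for 48 of 65 members (73.8%), against 47.9% of all genes tested, and its median was −0.08 against 0.01 over all genes. In size it was under 0.2 for 54 members and reached 0.5 for 0 of them, with a median size of 0.10 against 0.14 over all genes. The factors took 0.981 to 1.1% of all counts in MLPKO and 0.993 to 1.06% in cRADΔ/Δ-MLPKO.

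The edgeR test called 1 of 65 members higher, against a background of 0.944% of all genes, and 0 of 65 lower, against 1.8%. At an unadjusted p under 0.05, 4 members were higher (6.15%, background 10.1%) and 15 were lower (23.1%, background 11.5%). DESeq2, the tool the authors used, called 3 higher (*Eef1a1*, *Eif2ak4* and *Eif4ebp2*, background 3.81%). It called 7 lower (*Eef1a2*, *Eif2ak1*, *Eif2b3*, *Eif3h*, *Eif3l*, *Eif4a1* and *Eif4g1*, background 5.84%), and limma-voom called *Eef1a1* alone. The genotypes did not overlap for 3 members that were higher (background 2.64%) and 6 that were lower (background 3.98%): the first 3 above, and *Eef1a2*, *Eif2ak1*, *Eif2b3*, *Eif4a1*, *Eif4g1* and *Eef1g*, the last of which lies outside the rule for named genes and is named because of its values. No test over the list was made, and leaving out MLPKO mouse 4 added 2 edgeR calls, *Eif4g1* (edgeR adjusted p = 0.0477) and *Eif2b3* (0.0426), with 6.14% of all genes then called in place of 2.74%.

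**Figure D2:**
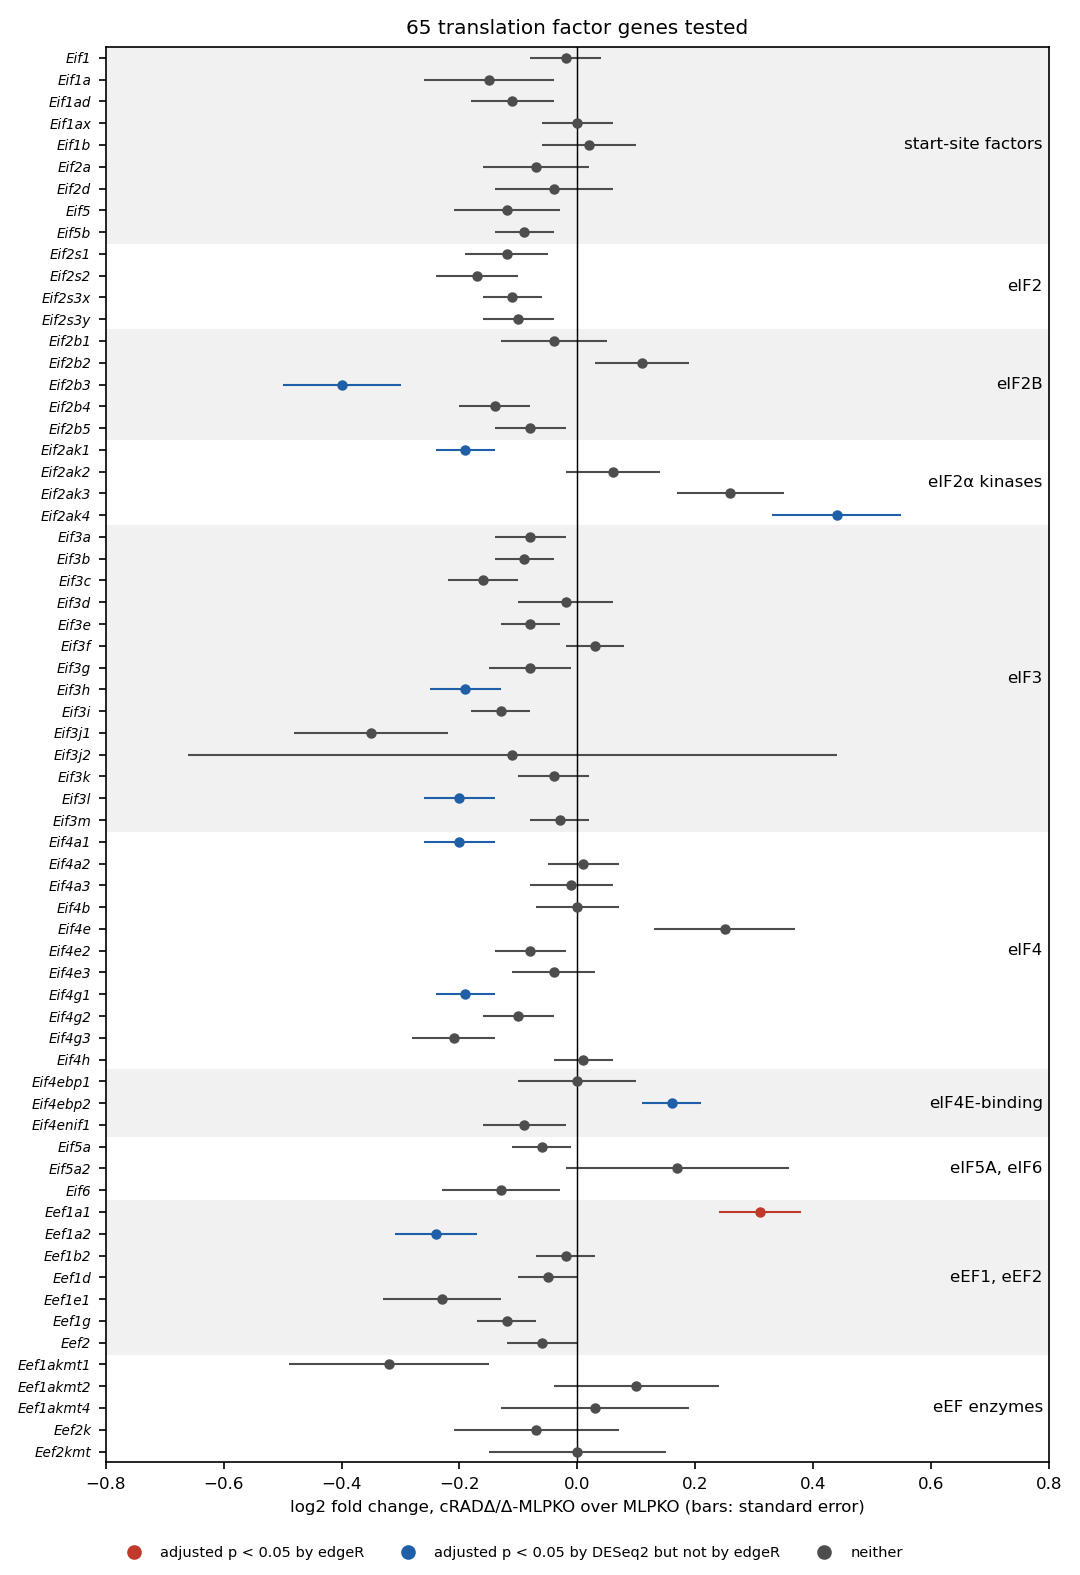
Log2 fold change (x axis, cRADΔ/Δ-MLPKO over MLPKO) with its SE for each of the 65 factor genes tested, grouped by role, in red where edgeR called the gene, in blue where only DESeq2 did. *Eef1a1* is the only red point, and 48 of 65 points lie below 0.

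In the cap-binding complex, several values were lower without passing the edgeR test. *Eif4g1* (chromosome 16, 20487063 to 20511654), the scaffold that joins the cap to the small subunit, had 27399, 28200, 27700, 26683 and 29496 normalized counts in MLPKO and 23640, 24356, 24893, 24227 and 24767 in cRADΔ/Δ-MLPKO. All 5 cRADΔ/Δ-MLPKO mice lay below all MLPKO mice (log2 fold change −0.19, SE 0.05, edgeR adjusted p = 0.0609, DESeq2 adjusted p = 0.000217). *Eif4a1*, a helicase of the complex, had 6516 to 7275 normalized counts in MLPKO and 5622 to 6398 in cRADΔ/Δ-MLPKO (−0.20, SE 0.06, edgeR adjusted p = 0.0756, DESeq2 adjusted p = 0.0129). Its paralog *Eif4a2* had 11914 to 14124 and 12391 to 14005 (0.01, SE 0.06). *Eif4g3*, a second scaffold, had 2937 to 3561 and 2503 to 2974 (−0.21, SE 0.07, edgeR adjusted p = 0.126).

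*Eif4e*, which binds the cap itself, had 3899 normalized counts in MLPKO mouse 2 and 5633 to 6494 in the other 4 MLPKO mice, against 6305 to 7287 in cRADΔ/Δ-MLPKO. The groups overlapped (log2 fold change 0.25, SE 0.12, edgeR adjusted p = 0.251), and without MLPKO mouse 2 the value was 0.14. The related *Eif4e2*, which binds caps more weakly and takes part in repression, had 2316 to 2600 and 2119 to 2406 (−0.08, SE 0.06). Over the 11 factors of the eIF4 class tested, 7 lay below 0 and 4 above, with a median log2 fold change of −0.04. Over all genes 47.9% lay below 0. The 3 members of that class that were not tested, *Eif4e1b*, *Eif4a3l1* and *Eif4a3l2*, had at most 16 counts in any mouse.

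The eIF4E-binding proteins hold eIF4E away from eIF4G until mTORC1 phosphorylates them. *Eif4ebp2* had 4904, 4892, 4716, 4858 and 4860 normalized counts in MLPKO and 5060, 5855, 5556, 5560 and 5079 in cRADΔ/Δ-MLPKO. Every cRADΔ/Δ-MLPKO mouse was above every MLPKO mouse, and MLPKO mice varied little (log2 fold change 0.16, SE 0.05, edgeR adjusted p = 0.11, DESeq2 adjusted p = 0.0495). *Eif4ebp1*, the form best known from muscle and fat, had 1766 to 2361 and 1830 to 2317, with a log2 fold change of 0.00 (SE 0.10). *Eif4ebp3* had at most 8 counts in any mouse and was not tested.

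Of the 4 eIF2 alpha kinases, each of which answers another stress, *Eif2ak4* (GCN2, which senses uncharged tRNA) had the largest log2 fold change of all members, 0.44 (SE 0.11, edgeR adjusted p = 0.0565, DESeq2 adjusted p = 0.00863). It had 285, 270, 254, 239 and 228 normalized counts in MLPKO and 379, 414, 325, 301 and 316 in cRADΔ/Δ-MLPKO, without overlap, so the level was low in all mice. *Eif2ak1* (HRI, which senses haem and mitochondrial stress) went the other way, with 1395 to 1506 in MLPKO and 1195 to 1321 in cRADΔ/Δ-MLPKO, again without overlap (−0.19, SE 0.05, edgeR adjusted p = 0.0621, DESeq2 adjusted p = 0.011). *Eif2ak3* (PERK, of the endoplasmic reticulum) had 366 to 467 and 435 to 522 (0.26, SE 0.09, edgeR adjusted p = 0.11), and *Eif2ak2* (PKR, which binds double-stranded RNA) had 516 to 631 and 530 to 656 (0.06, SE 0.08). These kinases thus gave log2 fold changes from −0.19 to 0.44 and no edgeR call.

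The 4 genes for subunits of eIF2, their substrate, lay between −0.17 and −0.10 in log2 fold change. At an unadjusted p under 0.05, 1 was lower, against 11.5% of all genes, and 0 were called. *Eif2s1*, the alpha subunit that the kinases phosphorylate, had 1600 to 2050 normalized counts in MLPKO and 1492 to 1664 in cRADΔ/Δ-MLPKO (−0.12, SE 0.07, and −0.05 without MLPKO mouse 5). In eIF2B, *Eif2b3*, the gamma subunit of the catalytic part, had 538, 696, 504, 502 and 582 in MLPKO and 433, 449, 413, 474 and 372 in cRADΔ/Δ-MLPKO, so that the groups did not overlap (−0.40, SE 0.10, edgeR adjusted p = 0.0621, DESeq2 adjusted p = 0.0121). Without MLPKO mouse 2, its highest, the log2 fold change was −0.31. The catalytic epsilon subunit *Eif2b5* had 2239 to 2573 and 2039 to 2465 (−0.08, SE 0.06), and the 5 subunits ranged from −0.40 to 0.11 with a median of −0.08.

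**Figure D3:**
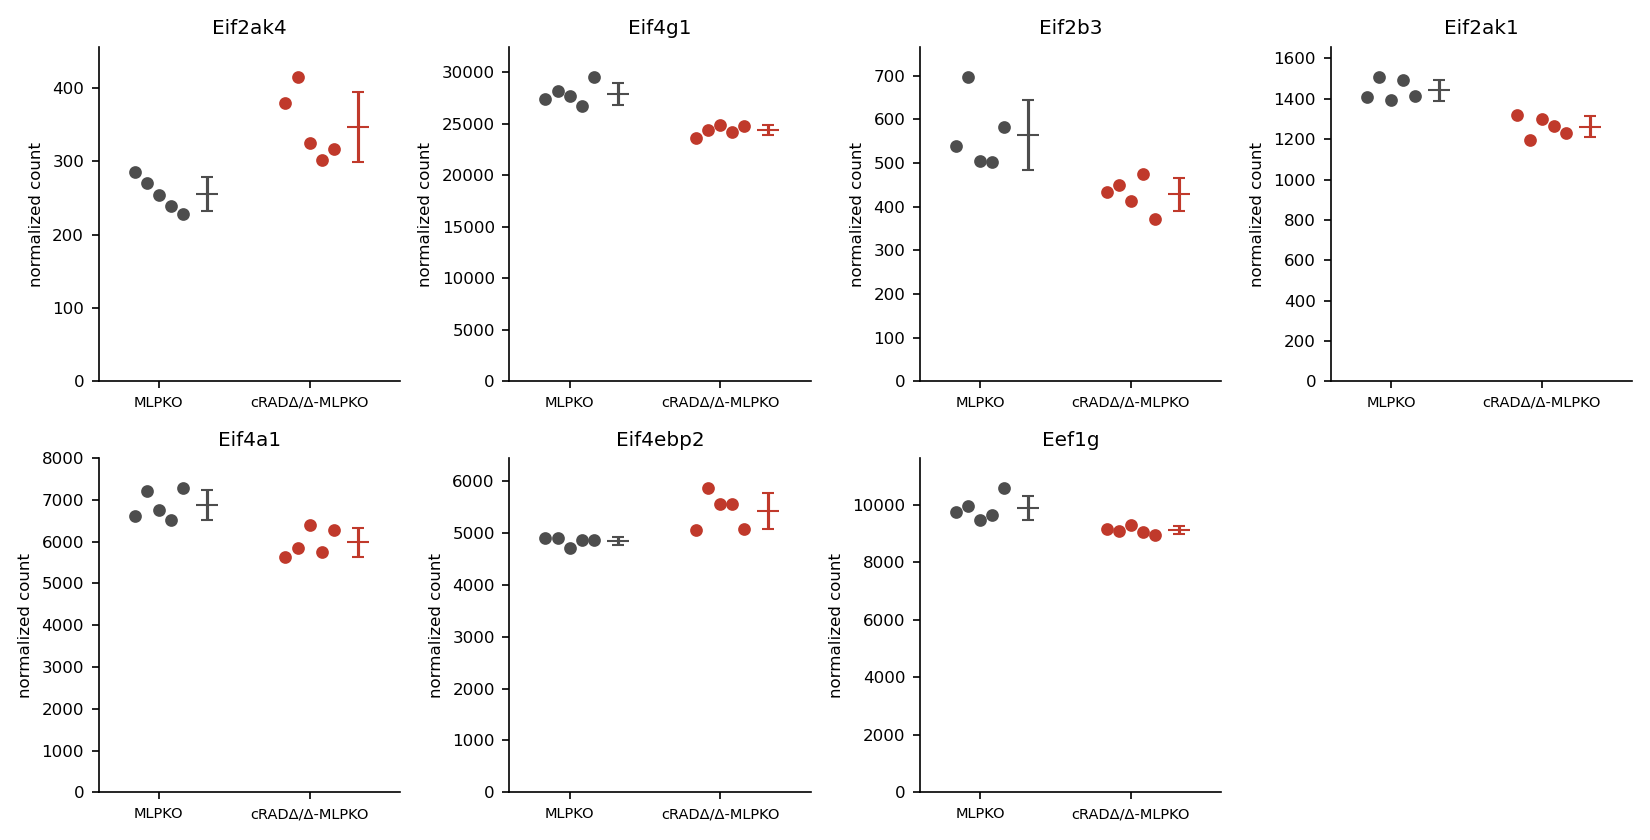
Normalized counts per mouse of the 7 members other than the eEF1A pair whose genotypes did not overlap, MLPKO in grey and cRADΔ/Δ-MLPKO in red, with the mean and SD beside the points and axes starting at 0. *Eif2ak4* and *Eif4ebp2* are higher in cRADΔ/Δ-MLPKO and the other 5 lower, and none of the 7 has an edgeR adjusted p under 0.05.

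eIF3, the largest initiation factor, holds the small subunit ready for the mRNA. Of its 14 genes, 13 lay below 0, against 47.9% of all genes, with a median log2 fold change of −0.09. At an unadjusted p under 0.05, 5 were lower and 0 higher, against 11.5 and 10.1% of all genes. *Eif3h* had 6591 to 7625 normalized counts in MLPKO and 5908 to 6765 in cRADΔ/Δ-MLPKO (−0.19, SE 0.06, edgeR adjusted p = 0.0933, DESeq2 adjusted p = 0.0264). *Eif3l* had 2596 to 2837 and 2137 to 2640 (−0.20, SE 0.06, edgeR adjusted p = 0.106, DESeq2 adjusted p = 0.0493). The scaffold subunit *Eif3a* had 8996 to 10199 and 8218 to 9609 (−0.08, SE 0.06).

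The j subunit, which sits near the mRNA entry channel, is encoded by *Eif3j1* and *Eif3j2*. Their coding sequences, 783 and 789 bases long, were identical over 783 of 783 aligned bases. The longest identical run was 781 bases, so reads within it cannot be assigned to either gene and both values are uncertain. For each gene, 2 other annotated genes match at 95% identity or more, the other j gene among them. The counts of copies outside the pair were not examined. *Eif3j1* had 2165, 1906, 2342, 2846 and 2559 normalized counts in MLPKO and 1518, 1557, 2250, 1891 and 2072 in cRADΔ/Δ-MLPKO. *Eif3j2* had 591, 1150, 538, 110 and 603 in MLPKO and 860, 824, 102, 504 and 476 in cRADΔ/Δ-MLPKO. In each genotype the mouse with the lowest *Eif3j2* (MLPKO mouse 4, cRADΔ/Δ-MLPKO mouse 3) had the highest *Eif3j1*, and the mouse with the highest *Eif3j2* had the lowest *Eif3j1*. Counted apart, *Eif3j1* had a log2 fold change of −0.35 (SE 0.13, edgeR adjusted p = 0.146) and *Eif3j2* of −0.11 (SE 0.55), which was 0.26 without MLPKO mouse 2 and 0.17 without cRADΔ/Δ-MLPKO mouse 3.

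The sum of the 2 genes varied far less: 2756, 3055, 2879, 2956 and 3162 normalized counts in MLPKO and 2378, 2381, 2352, 2395 and 2549 in cRADΔ/Δ-MLPKO. The groups did not overlap, with means of 2962 ± 156 (SD, n = 5) and 2411 ± 78.6 (SD, n = 5). When the counts of the 2 genes were entered as 1 row, a choice made after their values were seen, the row had a log2 fold change of −0.30 (SE 0.05) and an edgeR adjusted p of 0.021, and it was the only lower edgeR call among the factors. Without MLPKO mouse 5 the edgeR adjusted p was 0.0593, without cRADΔ/Δ-MLPKO mouse 3 it was 0.0545 and without mouse 4 it was 0.0539, and without any other mouse it stayed at 0.0495 or less.

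**Figure D4:**
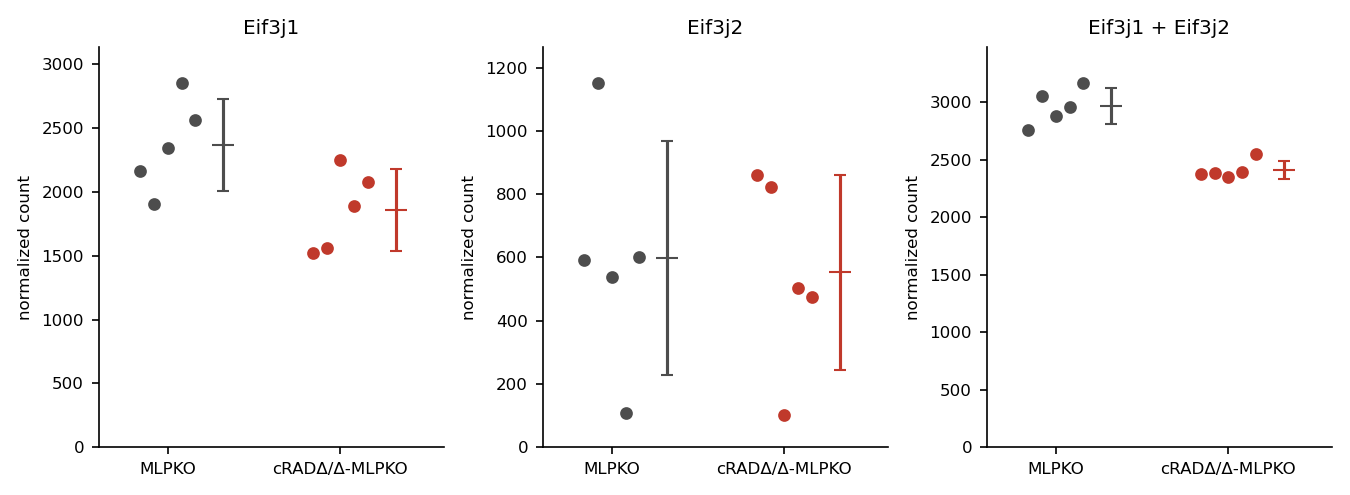
Normalized counts per mouse of *Eif3j1*, *Eif3j2* and their sum, MLPKO in grey and cRADΔ/Δ-MLPKO in red, with the mean and SD beside the points and axes starting at 0. The single genes overlap between the genotypes, with *Eif3j2* at 110 and 102 in 1 mouse of each, whereas the sum lies between 2756 and 3162 in MLPKO and between 2352 and 2549 in cRADΔ/Δ-MLPKO.

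The factors that choose the start codon and join the subunits gave no call. Of 9 tested, 7 lay below 0, against 47.9% of all genes, and the range was −0.15 to 0.02. At an unadjusted p under 0.05, 0 were lower and 0 higher, against 11.5 and 10.1% of all genes. *Eif1*, which guards start-codon choice, had 15372 to 17573 normalized counts in MLPKO and 15627 to 16957 in cRADΔ/Δ-MLPKO (log2 fold change −0.02, SE 0.06). Its coding sequence is matched by 16 other annotated genes. The 16 numbered *Eif1ad* genes on chromosome 12, *Eif1ad2* to *Eif1ad19*, had at most 2 counts in any mouse and were not tested, and *Eef1ece2* had 0 counts in all mice. Among eIF5A, whose hypusine residue helps ribosomes past stalling sequences, and eIF6, which keeps the large subunit apart, *Eif5a* had 10811 to 12094 and 10490 to 11139 (−0.06, SE 0.05), *Eif5a2* 70.0 to 122 and 83.8 to 127 (0.17, SE 0.19) and *Eif6* 677 to 869 and 541 to 769 (−0.13, SE 0.10). Without MLPKO mouse 2 the log2 fold changes were 0.09 for *Eif5a2* and −0.06 for *Eif6*.

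Of the 7 genes in the class named eEF1 and eEF2, *Eef1a1* was the only 1 with a log2 fold change above 0. Over all genes 47.9% lay below 0. *Eef2*, which moves the ribosome along the mRNA, had 62224 to 68323 normalized counts in MLPKO and 59900 to 68914 in cRADΔ/Δ-MLPKO, and the groups overlapped over most of their range (−0.06, SE 0.06, edgeR adjusted p = 0.608). *Eef1g*, part of the exchange factor that recharges eEF1A, had 9483 to 10575 and 8964 to 9316 (−0.12, SE 0.05, edgeR adjusted p = 0.196). *Eef2k*, the kinase that inactivates eEF2, had 1163 to 1903 and 1146 to 1667 (−0.07, SE 0.14, and −0.15 without MLPKO mouse 2). The 4 methyltransferases of eEF1A and eEF2 that were tested had log2 fold changes from −0.32 to 0.10 and an unadjusted p above 0.05, and *Eef1akmt3* had at most 8 counts in any mouse and was not tested.

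The ratio within a library was also taken for 9 other paralog pairs, each by the exact two-sided permutation test over 252 splits. The *Eif4e2* to *Eif4e* ratio differed by −0.35 on the log2 scale (SE 0.13, exact p = 0.0159, adjusted over the 10 pairs 0.0795). It was 0.423, 0.594, 0.387, 0.357 and 0.43 in MLPKO and 0.338, 0.382, 0.319, 0.325 and 0.328 in cRADΔ/Δ-MLPKO, so that the groups overlapped, and without MLPKO mouse 2, the highest, the difference was −0.24 (exact p = 0.0238). The *Eif4a2* to *Eif4a1* ratio differed by 0.22 (SE 0.09, exact p = 0.0556, adjusted 0.185). Without MLPKO mouse 1 (exact p = 0.0317) or cRADΔ/Δ-MLPKO mouse 3 (exact p = 0.0476) it passed 0.05 before adjustment.

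For the other 7 pairs the differences lay between −0.01 and 0.25 with exact p from 0.175 to 0.857. These include the X-linked and Y-linked genes for the gamma subunit of eIF2, *Eif2s3x* and *Eif2s3y*, for which the log2 ratio was −0.10 in both groups with a difference of 0.00 (SE 0.05). They also include *Eif4g3* to *Eif4g1* (−0.01, SE 0.08), *Eif1b* to *Eif1* (0.04, SE 0.06), *Eif1ax* to *Eif1a* (0.16, SE 0.12), *Eif4ebp2* to *Eif4ebp1* (0.16, SE 0.11), *Eif5a2* to *Eif5a* (0.25, SE 0.20) and *Eif3j2* to *Eif3j1* (0.25, SE 0.93). The eEF1A pair was the only 1 of the 10 whose ratios did not overlap between the genotypes.

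Other lists of the pathway are given beside all genes, of which edgeR called 0.944% higher and 1.8% lower. DESeq2 called 3.81% higher and 5.84% lower. At an unadjusted edgeR p under 0.05, 10.1% were higher and 11.5% lower. DESeq2 called 4 of 15 genes of mTORC1 and kinases (median log2 fold change −0.02, 4 lower at that unadjusted p, 0 higher). It called 1 of 11 eIF4F and poly(A) partners (median −0.06, 2 lower, 2 higher). Of 9 termination and recycling genes it called 2 (median −0.13, 4 lower, 0 higher). Among 15 genes of mTORC1 and the kinases of these factors, edgeR called 0 higher and 1 lower: *Mknk2*, a kinase that phosphorylates eIF4E, fell from 12287 ± 1264 to 8960 ± 242 normalized counts (SD, n = 5 each; log2 fold change −0.46, SE 0.07, edgeR adjusted p = 0.0158), and the call was kept without each of the 10 mice (adjusted p up to 0.0476). Of 11 partners of eIF4F and the poly(A) tail, 1 was called lower: *Dhx29*, a helicase for structured leaders, fell from 1374 ± 65.7 to 1090 ± 61.3 (−0.34, SE 0.06, edgeR adjusted p = 0.0198), a call lost without MLPKO mouse 1 or 5 or cRADΔ/Δ-MLPKO mouse 5 (adjusted p up to 0.059). Of 9 genes of termination and recycling, 1 was called lower: *Etf1*, the release factor, fell from 6280 ± 517 to 5222 ± 120 (−0.27, SE 0.06, edgeR adjusted p = 0.0448), a call kept only without MLPKO mouse 3 or 4 when single mice were left out (adjusted p up to 0.109).

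The 22 cytosolic aminoacyl-tRNA synthetase genes, which charge the tRNAs that eEF1A carries, gave 0 edgeR calls and 4 by DESeq2. Over all genes DESeq2 called 5.84% lower and 3.81% higher. Of these genes 21 were below 0, against 47.9% of all genes, with a median log2 fold change of −0.14, and 9 were lower at an unadjusted p under 0.05, against 11.5% of all genes. Of 88 cytosolic ribosomal protein genes tested, 67 were above 0 and 21 below, with a median of 0.05, and edgeR called 1 higher and 0 lower. At an unadjusted p under 0.05, 11 were higher, a share near the 10.1% of all genes, and 0 lower. The difference between these lists was not tested. The called gene was *Rps13*, at 4591 ± 160 and 5428 ± 298 normalized counts (SD, n = 5 each; log2 fold change 0.24, SE 0.05, edgeR adjusted p = 0.0387), a call kept only without MLPKO mouse 4 or cRADΔ/Δ-MLPKO mouse 1 when single mice were left out (adjusted p up to 0.0948).

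The integrated stress response, the programme that phosphorylated eIF2 alpha switches on, gave 0 edgeR calls among 14 target genes tested. Their median log2 fold change was −0.06. At an unadjusted p under 0.05, 2 were lower and 0 higher, against 11.5 and 10.1% of all genes. DESeq2 called 1 of them, against 5.84% of all genes called lower and 3.81% higher. That gene, *Gdf15*, a stress hormone, is named because of its values: it had 126 to 192 normalized counts in MLPKO and 49.9 to 165 in cRADΔ/Δ-MLPKO (−0.89, SE 0.29, edgeR adjusted p = 0.103, DESeq2 adjusted p = 0.0256), with cRADΔ/Δ-MLPKO mouse 3 among the MLPKO values. Leaving out that mouse gave an edgeR call (adjusted p = 0.0246), and leaving out any other gave none (adjusted p up to 0.197). The 9 enzymes that make hypusine and diphthamide, the modified residues of eIF5A and eEF2, gave 0 edgeR calls (median −0.04, 1 lower at an unadjusted p under 0.05, 0 called by DESeq2). The 12 mitochondrial translation factors likewise gave 0 (median −0.02, 1 lower at an unadjusted p under 0.05, 1 called by DESeq2).

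**Figure D5:**
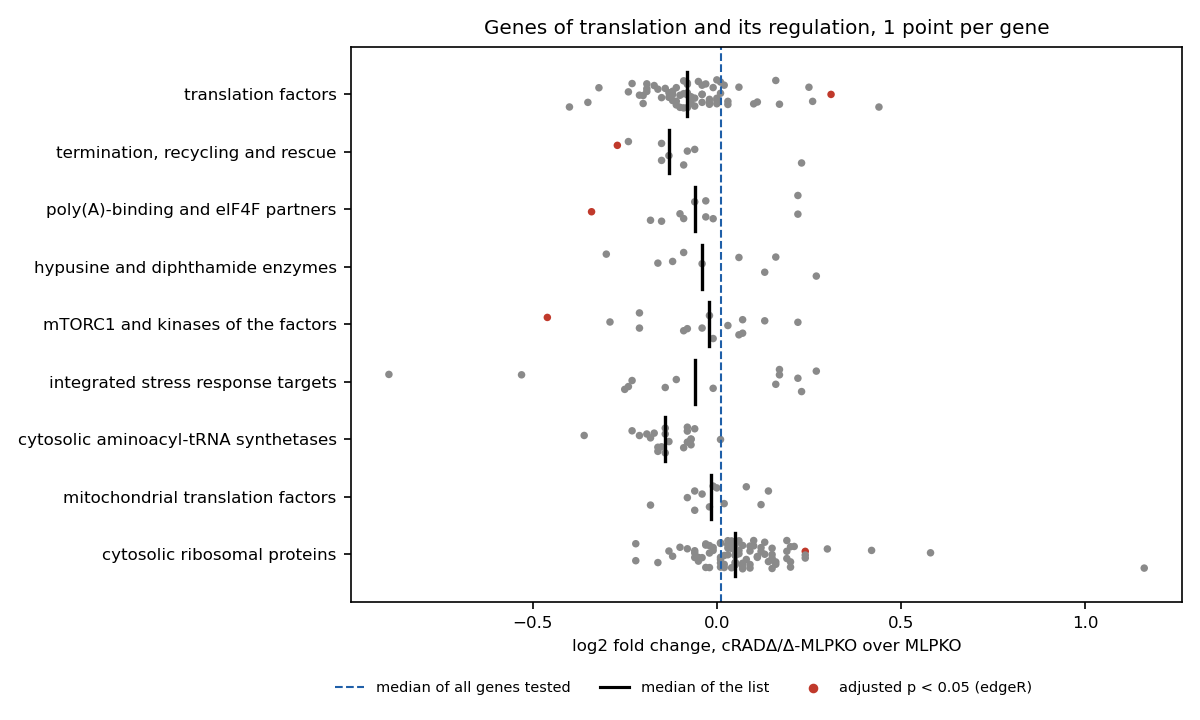
Log2 fold change (x axis, cRADΔ/Δ-MLPKO over MLPKO) of each gene tested in the translation factors and 8 other lists of the pathway, 1 point per gene, with the list's median as a black bar, the median of all genes (0.01) as a dashed line and edgeR calls in red. The medians lie at −0.08 for the factors, −0.14 for the synthetases, −0.13 for termination and recycling and 0.05 for the ribosomal proteins. Those of the remaining lists lie between −0.06 and −0.02.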

How the data were processed

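The deposited table holds raw counts per gene for 10 libraries; the authors checked reads with FastQC, aligned them with STAR to GRCm39 and counted them with featureCounts (versions, strand, pair and multi-mapping settings are not given in the sources used here). It lists 60676 genes, of which 3491 without values were left out. Depth, as total counts, sets the precision of each value, and standard errors come from the spread between mice.

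Symbols and coordinates came from GENCODE M39 (56629 IDs matched). The tested set needed over 10 counts in 6 or more mice, with Gm and Rik genes left out; it was fitted in edgeR 4.0.16 (R 4.3.3; TMM, quasi-likelihood test, genotype only, Benjamini-Hochberg over 13453 genes, adjusted p under 0.05). The authors tested genes with DESeq2 at an adjusted p under 0.05. Here DESeq2 1.42.0 and limma-voom (limma 3.58.1) were alternatives, with other size factors and filters, halved counts, mouse number as a block, and each mouse left out. Normalized counts are TMM-scaled to the geometric mean library. Ratios of raw counts were compared by an exact permutation test. Copies were found with BLAST 2.17.0 (95% identity over at least 100 bases) and pairs aligned with Biopython 1.88.

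Members, classes and lists were chosen with earlier results of these data known. Named genes are the eEF1A pair, all pairs tested, edgeR calls, members by unadjusted p until 25 were reached, and the defining members of each class; of other lists, edgeR calls. Mouse numbers name different animals, so p-values measure the spread between these mice.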

Additional observations from a re-analysis of the deposited data

Results flagged for a closer look

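In each genotype, a mouse was marked when its gap to the nearest other mouse exceeded 0.71 of the group's range (Dixon's limit for 5 values). Of 86 groups examined over the 33 named members and the 10 ratios, 6 were marked (6.98%), and chance alone marks about 1 in 20. For *Eef1a2*, cRADΔ/Δ-MLPKO mouse 4 had 76481 normalized counts against 65968 to 68738 in the other 4 mice. *Eif4ebp2* had 4716 in MLPKO mouse 3 and 4858 to 4904 in the others. *Eif2s1* had 2050 in MLPKO mouse 5 and 1600 to 1709 in the others. *Eif6* had 869 in MLPKO mouse 2 and 677 to 713 in the others. The *Eif4g3* to *Eif4g1* ratio was 0.101 in cRADΔ/Δ-MLPKO mouse 3 and 0.117 to 0.123 in the others. The *Eif2s3y* to *Eif2s3x* ratio was 0.836 in cRADΔ/Δ-MLPKO mouse 5 and 0.944 to 0.984 in the others.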

How the results depend on the processing

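The median log2 fold change of the factors stayed between −0.08 and −0.05 under all 21 alternatives. DESeq2 called 7 members lower and 3 higher, upper quartile factors 2 higher (*Eif2ak4* added, edgeR adjusted p = 0.0482), and leaving out single mice gave 0 to 2 lower and 0 to 1 higher. With *Eif3j1* and *Eif3j2* summed, chosen after seeing the data, 1 was lower. Over all genes the share called ran from 0.349 to 9.65%, and was lowest without MLPKO mouse 5; the cause was not tested.

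Same-numbered mice correlated in their deviations at 0.0421, 0.0855, 0.101, 0.215 and −0.0438, and 3 of 10 mice correlated best with their own number. A pairing by number was not shown, and these values were not tested. With mouse number as a replicate block, 0 members were called higher and 0 lower (*Eef1a1* edgeR adjusted p = 0.0731), and the row of *Eif3j1* plus *Eif3j2* had −0.30 (edgeR adjusted p = 0.0391). The *Eef1a2* to *Eef1a1* difference was then −0.55 (exact sign-flip p = 0.0625, the smallest 5 pairs allow). No pair can fall under 0.05 in that sign-flip test, so it decides nothing about the 9 other pairs. Without the block, 1 of those 9 had an exact permutation p under 0.05, and 1 to 2 had when single mice were left out.

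Uncalled values near 0 changed sign: with upper quartile factors *Eif4ebp1* to 0.02 and *Eif1* to 0.01, with filterByExpr *Eif4ebp1* to 0.0016, and with group medians the *Eif4g3* to *Eif4g1* ratio to 0.07. Without single mice the range was −0.06 to 0.05 for *Eif4ebp1*, −0.05 to 0.01 for *Eif1*, −0.02 to 0.06 for *Eif1b*, −0.02 to 0.04 for *Eif1ax*, −0.02 to 0.04 for *Eif4a2*, −0.15 to 0.02 for *Eef2k*, −0.37 to 0.26 for *Eif3j2*, −0.05 to 0.04 for the *Eif4g3* to *Eif4g1* ratio, −0.02 to 0.04 for *Eif2s3y* to *Eif2s3x*, and −0.34 to 0.86 for *Eif3j2* to *Eif3j1*. The *Eef1a1* to *Eef1a2* contrast kept its direction in every alternative listed.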
